A study of Mus musculus with 6 samples.

Results

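CTCF, the cohesin ring, its loading factors and the proteins that release it from DNA were described here in mouse morulae depleted of YY1. The 10 genes (*Ctcf*, *Smc1a*, *Smc3*, *Rad21*, *Stag1*, *Stag2*, *Nipbl*, *Mau2*, *Wapl* and *Pds5a*) were chosen by name, as architectural proteins that act with YY1 in chromatin looping. The rule used no measured value, but earlier results of these data were known when the genes were chosen. They are 10 of the 55364 genes listed in the table, and all 10 were among the 17353 genes tested. BDF1 x BDF1 embryos, made by in vitro fertilization from dams of 8 to 12 weeks and sires of 10 to 12 weeks, were injected as zygotes for a control knockdown (control KD) or with an siRNA against *Yy1* at 10 µM (*Yy1* KD) and were cultured in KSOM. The agent of the control knockdown is not given in the sources used here. Morulae were collected at 64 h after insemination. RNA-seq was made from 3 libraries per group, each of 10 pooled morulae, so that all cells of these embryos share a library, and the sex of the embryos is not given. Because BDF1 mice are hybrids of the C57BL/6N and DBA/2 strains, the embryos of a pool are not genetically identical. The sources used here do not say whether the pools came from separate fertilizations, and p-values measure only the spread between these libraries. In pooled embryos, fewer cells that use a gene cannot be told apart from less RNA of that gene in each cell.

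Cohesin is a ring of SMC1A, SMC3 and RAD21 that entraps DNA, with 1 of the paralogous STAG proteins bound to RAD21. NIPBL and MAU2 form the complex that loads the ring and drives the extrusion of loops, WAPL together with a PDS5 protein opens the ring again, and CTCF, a zinc finger protein bound to oriented DNA sites, halts the ring and so sets the borders of topological domains. The same ring holds sister chromatids together from replication to anaphase. YY1, itself a zinc finger protein, has been named as another structural factor that brings enhancers and promoters together.

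The values are TPM, in which the read pairs of a gene are divided by its exon length and each library is scaled to the same sum. From 11793509 to 24417789 read pairs on genes were recovered per library. Over genes, none of them a replicate of another, Pearson's r of log2 levels was 0.955 to 0.962 for libraries of 1 group and 0.935 to 0.9496 for libraries of different groups. *Yy1*, the target, was at 96.0, 100.2 and 89.8 TPM in control KD and at 8.73, 8.90 and 8.32 TPM in *Yy1* KD libraries, lower in every *Yy1* KD library, as labelled. The markers of pluripotent cells (summed level 1263 to 1486 TPM in control KD, 1211 to 1351 in *Yy1* KD, 6 genes) and of trophectoderm (727 to 789 against 535 to 729 TPM, 6 genes) were present in every library, and both sums overlapped between the groups. The sum of the former was carried by *Pou5f1*, *Nanog* and *Klf4*. Its members *Sox2* (8.73, 9.93 and 14.3 TPM in control KD, 7.03, 5.75 and 4.02 in *Yy1* KD, limma adjusted p = 0.0942) and *Tdgf1* (39.5, 64.5 and 78.4 against 26.3, 35.8 and 35.5 TPM, limma adjusted p = 0.108) were lower without overlap and not called, and limma-voom on recovered read pairs called *Tdgf1*. In either direction, the groups did not overlap in 30.1% of all genes tested, and limma-voom called 12.3% of all genes. The part of pluripotent and trophectoderm cells in the results was not tested. Among the 6 genes of the trophectoderm list, 1 was called, *Tfap2c* (log2 fold change -0.54, limma adjusted p = 0.0174), where 6.11% of all genes tested were called. Of 11 markers of cumulus and granulosa cells, 7 stayed under 1 TPM in every library, *Fshr*, *Foxl2* and *Cyp19a1* among them. Their summed level was 9.64 to 12.5 TPM in control KD and 10.2 to 12.05 TPM in *Yy1* KD. Most of that sum was *Amhr2*, at 10.02, 8.16 and 8.56 TPM in control KD and 7.15, 8.52 and 8.61 TPM in *Yy1* KD, with overlap. *Star*, *Amh* and *Inha* each passed 1 TPM in at least 1 library.

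In *Yy1* KD morulae, *Stag1* fell to 50.6% of its control KD level and *Rad21* rose to 137% of it, while the remaining 8 genes were not called. Both subunits touch each other in the complex, since the STAG protein docks on RAD21. Calls rest on a limma fit to log2(TPM + 1), with p-values adjusted by Benjamini-Hochberg over all genes tested and a threshold of 0.05. Of the 10 genes, 2 were called, 1 in each direction, where 6.11% of all genes tested were called (1.92% higher and 4.2% lower). Of all calls 68.6% were lower, and 58.5% after quantile normalization. Among genes with a mean of at least 10 TPM, which holds for all 10, the share was 9.35%. In 5 of the 10 genes the 3 *Yy1* KD values lay wholly above or wholly below the 3 control KD values, against 30.1% of all genes tested. Their median change was -0.04 on the log2 scale, beside -0.02 over all genes tested. *Ctcf* and the loader genes *Nipbl* and *Mau2* were among those without a call.

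**Figure D1:**
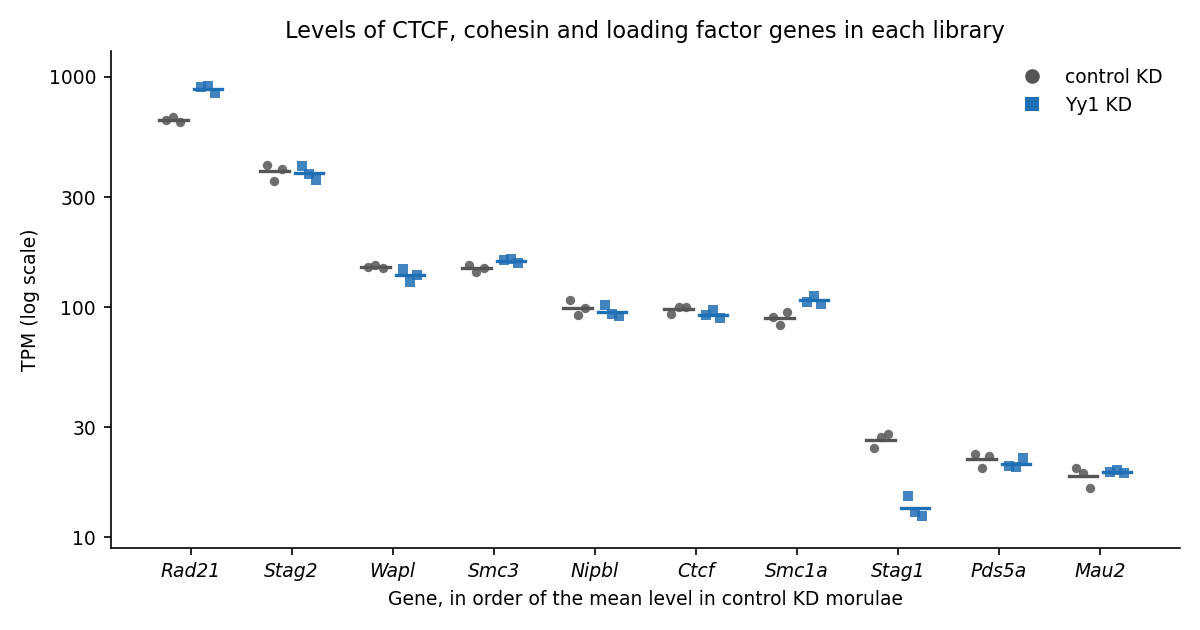
Level in TPM (log axis) of each gene in each of the 3 control KD (grey circles) and 3 *Yy1* KD libraries (blue squares), with a bar at the group mean. *Rad21* sits at 635 to 669 TPM in control KD and 854 to 911 TPM in *Yy1* KD, and *Stag1* at 24.4 to 28.1 against 12.3 to 15.1 TPM, while the other genes lie close together.

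The 10 genes spanned a wide range of levels in control KD morulae. *Rad21* came first with 651 ± 16.98 TPM (SD, n = 3), a level that 98.9% of the genes tested lay below. *Stag2* followed with 389 ± 32.4 TPM. Then came *Wapl* (149.9 ± 2.79 TPM) and *Smc3* (148 ± 4.65 TPM), which overlapped in their libraries. *Nipbl* (99.3 ± 7.53 TPM), *Ctcf* (98.2 ± 3.88 TPM) and *Smc1a* (89.8 ± 5.59 TPM) formed the next group, in which each gene overlapped its neighbour in the order. *Stag1* (26.6 ± 1.90 TPM), *Pds5a* (21.9 ± 1.66 TPM) and *Mau2* (18.5 ± 1.796 TPM) were lowest, and the ranges of these 3 genes did not overlap.

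The ring subunits were therefore far from equal as transcripts, although a ring holds them in equal number. The deposited level divides by the exons of all annotated transcripts together, which is long where many transcripts are annotated. For *Pds5a* this length was 19335 nt, against 8934 nt for its principal transcript, and for *Stag1* it was 11781 against 6186 nt. Per length of the principal transcript, a choice made after the values were seen, *Stag1* and *Pds5a* in control KD came to 50.6 and 47.4 on the TPM scale. *Rad21*, *Stag2*, *Stag1*, *Pds5a* and *Mau2* held their places in the order on that scale, *Smc3* moved ahead of *Wapl*, and *Ctcf* and *Smc1a* moved ahead of *Nipbl*. In *Yy1* KD morulae the deposited levels placed *Stag1* last of the 10, from the eighth place in control KD.

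*Ctcf* (ENSMUSG00000005698.15) spans bases 105636568 to 105682922 of chromosome 8, plus strand, in GRCm38 coordinates, which hold for all positions given. It encodes the zinc finger protein that anchors loops. Its level was 93.7, 100.3 and 100.5 TPM in control KD and 92.3, 96.8 and 89.5 TPM in *Yy1* KD libraries. The groups overlapped, with the lowest value in *Yy1* KD replicate 3. The log2 fold change was -0.08 (standard error 0.07, 95% interval -0.25 to 0.09, limma adjusted p = 0.556), so that the interval reached from 0.841-fold to 1.07-fold on the scale of TPM + 1. *Ctcf* shares 114 nt of exon with *Agrp* and 370 nt with *Gm5914*, whose read pairs were divided with it irrespective of strand. The genes whose log2 levels followed those of *Ctcf* most closely over the 6 libraries, among 6394 genes with a mean of at least 10 TPM, were *Rcc2* (Pearson's r = 0.980), *Dctn6* (r = 0.973) and *Rbm14* (r = 0.969). This is a description over 6 libraries in which *Ctcf* varied by an SD of only 0.07 on the log2 scale.

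*Rad21* (ENSMUSG00000022314.10, chromosome 15, minus strand, 51962240 to 51991747) encodes the kleisin that closes the ring and is cut by separase at anaphase. Its level was 648, 669 and 635 TPM in control KD and 905, 911 and 854 TPM in *Yy1* KD libraries. The lowest *Yy1* KD library thus exceeded the highest control KD library by a wide margin. The mean rose from 651 ± 16.98 to 889.7 ± 31.4 TPM (SD, n = 3 each), a 1.37-fold change, with a log2 fold change of 0.45 (standard error 0.07, 95% interval 0.30 to 0.61, limma adjusted p = 0.0174). *Rad21* shares no exon with another annotated gene, and between 14202 and 29657 read pairs were recovered on it per library. Leaving out single libraries ended the call in 4 of 6 cases, with limma adjusted p = 0.0657, 0.0554 and 0.0709 without control KD replicate 1, 2 and 3 and 0.0718 without *Yy1* KD replicate 2, where the log2 fold change was between 0.43 and 0.47. The call was also lost without the filter on low values (limma adjusted p = 0.0550) and without the variance trend (0.0742). With the replicate number added to the fit as a block it was lost too (0.0572).

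*Smc1a* and *Smc3* encode the ATPase arms of the ring. *Smc1a* (chromosome X, plus strand, 152016428 to 152062694) was at 90.6, 83.9 and 94.97 TPM in control KD and at 105, 112 and 104 TPM in *Yy1* KD libraries. All 3 *Yy1* KD values were above the control KD values, yet no call was made (log2 fold change of 0.25, standard error 0.08, 95% interval 0.07 to 0.43, limma adjusted p = 0.111). *Smc3* (chromosome 19, plus strand, 53600398 to 53645833) was at 152, 143 and 149 TPM in control KD and at 160.1, 163 and 155 TPM in *Yy1* KD libraries. Its groups did not overlap either, and its log2 fold change was 0.11 (standard error 0.06, 95% interval -0.05 to 0.26, limma adjusted p = 0.366).

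*Smc1a* and *Stag2* are X-linked. The Y-linked genes *Ddx3y*, *Eif2s3y*, *Kdm5d* and *Uty* summed to 24.5 to 40.8 TPM in control KD and 7.82 to 11.2 TPM in *Yy1* KD libraries, without overlap. In control KD most of that sum was *Ddx3y*. It was at 18.1, 30.5 and 17.8 TPM in control KD and 5.04, 5.14 and 3.55 TPM in *Yy1* KD. *Ddx3y* was called (limma adjusted p = 0.0126), where 6.11% of all genes tested were called. *Uty* was lower without overlap and not called, and *Eif2s3y* and *Kdm5d* overlapped between the groups. *Xist*, which is made from the inactive X chromosome, was at 49.7, 28.2 and 84.2 TPM in control KD and 26.4, 30.1 and 58.5 TPM in *Yy1* KD. Median log2 fold changes were -0.0021 over 532 X-linked and -0.03 over 16771 autosomal genes tested. The part of the sex of the pools in the values of *Smc1a* was not tested.

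The ratio of *Rad21* to *Smc3* within a library, which the scaling of that library leaves as it is, was examined after the levels had been seen. It was 4.27, 4.69 and 4.27 in control KD and 5.65, 5.60 and 5.51 in *Yy1* KD. *Rad21* thus rose relative to *Smc3*, from 4.41 ± 0.240 to 5.59 ± 0.0701 (SD, n = 3 each). The ratio of *Smc1a* to *Smc3* was between 0.588 and 0.639 in control KD and between 0.659 and 0.687 in *Yy1* KD. Both ratios were free of overlap between the groups, and the second moved by much less.

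*Stag1* (ENSMUSG00000037286.15) spans bases 100597798 to 100959375 of chromosome 9, plus strand. Its protein is the STAG paralogue known for cohesion at telomeres and for long-lived loops at CTCF sites. It was at 24.4, 27.3 and 28.1 TPM in control KD and at 15.1, 12.9 and 12.3 TPM in *Yy1* KD libraries. Every *Yy1* KD library was far below every control KD library. The mean fell from 26.6 ± 1.90 to 13.4 ± 1.45 TPM (SD, n = 3 each), with a log2 fold change of -0.94 (standard error 0.12, 95% interval -1.22 to -0.65, limma adjusted p = 0.0127). It shares no exon with another annotated gene. Here too, 4 of 6 such omissions ended the call, by small margins, with limma adjusted p = 0.0504, 0.0523 and 0.0614 without control KD replicate 1, 2 and 3 and 0.0505 without *Yy1* KD replicate 2, where the log2 fold change was between -0.99 and -0.90. The call also ended with the replicate number as a block (limma adjusted p = 0.0567).

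*Stag2* (chromosome X, plus strand, 42149317 to 42277185), the paralogue that is mutated in many tumours, did not follow. Its level was 415, 353 and 399 TPM in control KD and 410.4, 380.1 and 357 TPM in *Yy1* KD libraries, and the groups overlapped almost fully. The log2 fold change was -0.02 (standard error 0.09, 95% interval -0.24 to 0.19, limma adjusted p = 0.905). *Stag2* was the main STAG transcript of the morula. In control KD libraries *Stag1* made up 5.41%, 6.95% and 6.44% of the summed TPM of *Stag1*, *Stag2* and the meiotic *Stag3*, and in *Yy1* KD libraries 3.45%, 3.20% and 3.25%. The mean share of *Stag1* was thus 6.27 ± 0.786% in control KD and 3.301 ± 0.133% in *Yy1* KD (SD, n = 3 each), and that of *Stag2* 91.2% and 94.1%. The ratio of *Stag2* to *Stag1* was 17.001, 12.9 and 14.2 in control KD and 27.2, 29.5 and 28.9 in *Yy1* KD. These shares and ratios depend on the exon length that the level is divided by. Per length of the principal transcript, *Stag1* and *Stag2* came to 50.6 and 540 on the TPM scale in control KD. In *Yy1* KD they came to 25.6 and 531.

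**Figure D2:**
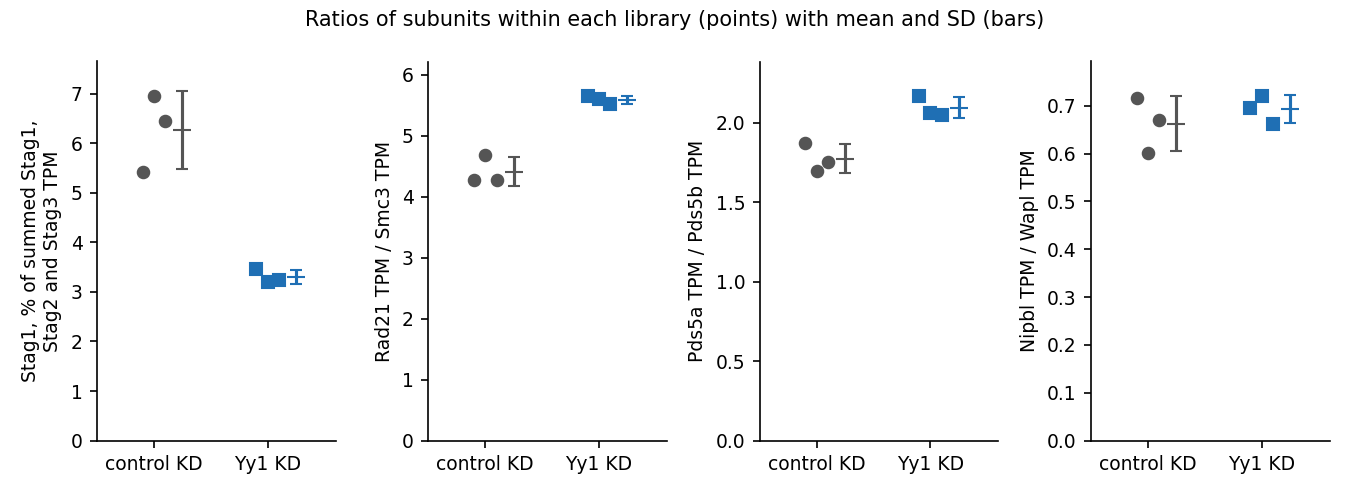
Ratios of TPM within each library (points), with the mean and SD of 3 libraries beside them, for control KD (grey) and *Yy1* KD (blue); each axis starts at 0. The share of *Stag1*, the ratio of *Rad21* to *Smc3* and that of *Pds5a* to *Pds5b* do not overlap between the groups, and the ratio of *Nipbl* to *Wapl* does, with means of 0.663 and 0.693.

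The promoters of these genes were searched for the YY1 consensus GCCATNTT, which reads AANATGGC on the other strand. RefSeq windows (GRCm38.p6) from 250 bases before to 50 bases after the transcription start were matched by symbol for 7 of the 10 genes and not for *Rad21*, *Stag2* and *Nipbl*. These RefSeq starts are not the GENCODE gene starts given with the gene spans. They lie at 100643448 for *Stag1*, which is 45650 bases inside its GENCODE span, at 105636538 for *Ctcf*, just before its GENCODE start, at 53600396 for *Smc3* and at 150673827 for *Pds5b*, 88 bases inside its span. The consensus was present in 3 of the 7, *Ctcf*, *Smc3* and *Stag1*. Of the tested genes with a window, 10.4% of 9767 held it, and of all windows 6.05% of 32851. It was not found in the windows of *Smc1a*, *Mau2*, *Wapl* and *Pds5a*. The lists of cohesin regulators, meiotic subunits, condensin, SMC5/6 and looping factors had 37 genes with a window. Of these, 3 held the consensus (8.11%), *Pds5b*, *Sgo2a* (positions -15 to -8) and *Adnp* (-5 to 3). The window of *Stag1*, the called gene among *Ctcf*, *Smc3* and *Stag1*, is given whole, from chr9:100643198-100643497 on the plus strand, with the consensus in capitals.

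Stag1: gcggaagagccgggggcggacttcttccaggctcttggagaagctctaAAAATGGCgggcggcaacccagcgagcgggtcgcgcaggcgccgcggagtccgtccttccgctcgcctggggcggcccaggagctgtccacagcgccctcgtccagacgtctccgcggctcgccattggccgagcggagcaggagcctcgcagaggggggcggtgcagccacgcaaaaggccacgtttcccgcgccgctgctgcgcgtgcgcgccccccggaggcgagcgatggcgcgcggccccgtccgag

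Counted from the RefSeq start, the match in *Stag1* spans positions -202 to -195 and reads as AANATGGC. The matches of *Ctcf*, *Smc3* and *Pds5b*, the paralogue of *Pds5a* described with it, are shown for comparison, on the strand of the gene and with the consensus in capitals, from chr8:105636532-105636571 (*Ctcf*), chr19:53600380-53600419 (*Smc3*) and chr5:150673774-150673813 (*Pds5b*), all on the plus strand.
Ctcf: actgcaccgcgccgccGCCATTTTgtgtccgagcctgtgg
Smc3: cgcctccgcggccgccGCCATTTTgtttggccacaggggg
Pds5b: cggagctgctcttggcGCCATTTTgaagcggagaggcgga

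Counted from the RefSeq start of each gene, the consensus covers bases 11 to 18 in *Ctcf* and bases 1 to 8 in *Smc3*, and positions -37 to -30 in *Pds5b*. All 3 read as GCCATTTT on the strand of the gene. The log2 fold changes of *Ctcf*, *Smc3* and *Pds5b* were -0.08, 0.11 and -0.28, none of them called. Those of *Sgo2a* and *Adnp*, whose matches are not printed, were -0.12 and -0.13, also without a call. Binding of YY1 at these sites was not analysed here.

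The loading complex showed no call. *Nipbl* (chromosome 15, minus strand, 8290617 to 8444463), the large HEAT repeat protein that activates the ATPase of the ring, was at 107, 92.0 and 98.7 TPM in control KD and at 101.9, 93.1 and 91.6 TPM in *Yy1* KD libraries. *Mau2* (chromosome 8, minus strand, 70016123 to 70042734), its partner, was at 19.9, 19.03 and 16.5 TPM in control KD and at 19.3, 19.5 and 19.03 TPM in *Yy1* KD libraries. In both genes the groups overlapped. The log2 fold change of *Nipbl* was -0.05 (95% interval -0.26 to 0.15, limma adjusted p = 0.755) and that of *Mau2* 0.06 (-0.19 to 0.32, limma adjusted p = 0.768). The ratio of *Nipbl* to *Mau2* was 4.84 to 5.998 in control KD and 4.76 to 5.27 in *Yy1* KD libraries.

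*Wapl* and *Pds5a* act on the ring after loading. *Wapl* (chromosome 14, plus strand, 34673928 to 34747983), which releases cohesin from chromatin, was at 149.6, 153 and 147 TPM in control KD and at 146, 129 and 138 TPM in *Yy1* KD libraries. The *Yy1* KD values were lower without overlap, by a narrow gap between control KD replicate 3 and *Yy1* KD replicate 1, and no call was made (log2 fold change of -0.12, 95% interval -0.29 to 0.05, limma adjusted p = 0.368). The ratio of *Nipbl* to *Wapl*, the loader against the release factor, was 0.716, 0.602 and 0.670 in control KD and 0.695, 0.721 and 0.663 in *Yy1* KD, and the groups overlapped.

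*Pds5a* (chromosome 5, minus strand, 65605721 to 65698273), a binding platform for both WAPL and the cohesin acetylation machinery, was at 23.1, 19.997 and 22.6 TPM in control KD and at 20.4, 20.2 and 22.1 TPM in *Yy1* KD libraries, with overlap (log2 fold change -0.06, 95% interval -0.31 to 0.18, limma adjusted p = 0.756). Its exons share 255 nt with *Gm42727* and 119 nt with *Gm42729*. Its paralogue *Pds5b* was at 12.3, 11.8 and 12.9 TPM in control KD and at 9.39, 9.78 and 10.8 TPM in *Yy1* KD libraries, lower without overlap without a call (-0.28 on the log2 scale, standard error 0.12, limma adjusted p = 0.216). The ratio of *Pds5a* to *Pds5b* was 1.87, 1.70 and 1.75 in control KD and 2.17, 2.06 and 2.05 in *Yy1* KD, all 3 higher.

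**Figure D3:**
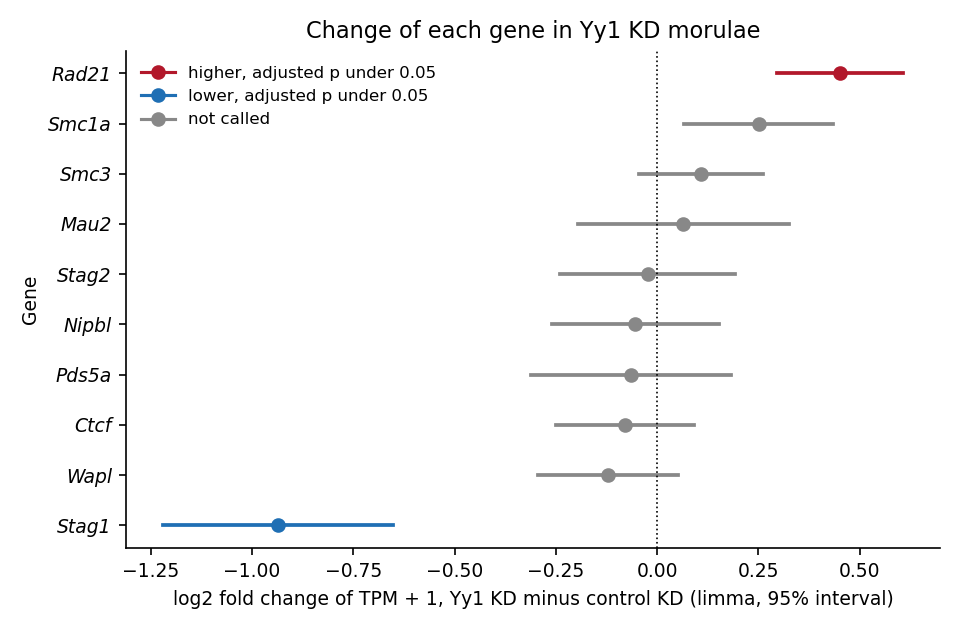
log2 fold change of TPM + 1 (x axis, *Yy1* KD minus control KD) of each gene, with its 95% interval from limma. The intervals of *Rad21* (0.30 to 0.61), *Smc1a* (0.07 to 0.43) and *Stag1* (-1.22 to -0.65) do not include 0, and only *Rad21* (red) and *Stag1* (blue) were called after adjustment over all genes tested.

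The fewest read pairs recovered on any of the 10 genes in a library were 720, on *Stag1* in *Yy1* KD replicate 3. A match of at least 150 nt and 95% identity to the transcript of another annotated gene was found for *Mau2*, in a stretch shared with 17 genes, and for *Pds5a*, with *Gm42727*, and for none of the other 8 genes.

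**Figure D4:**
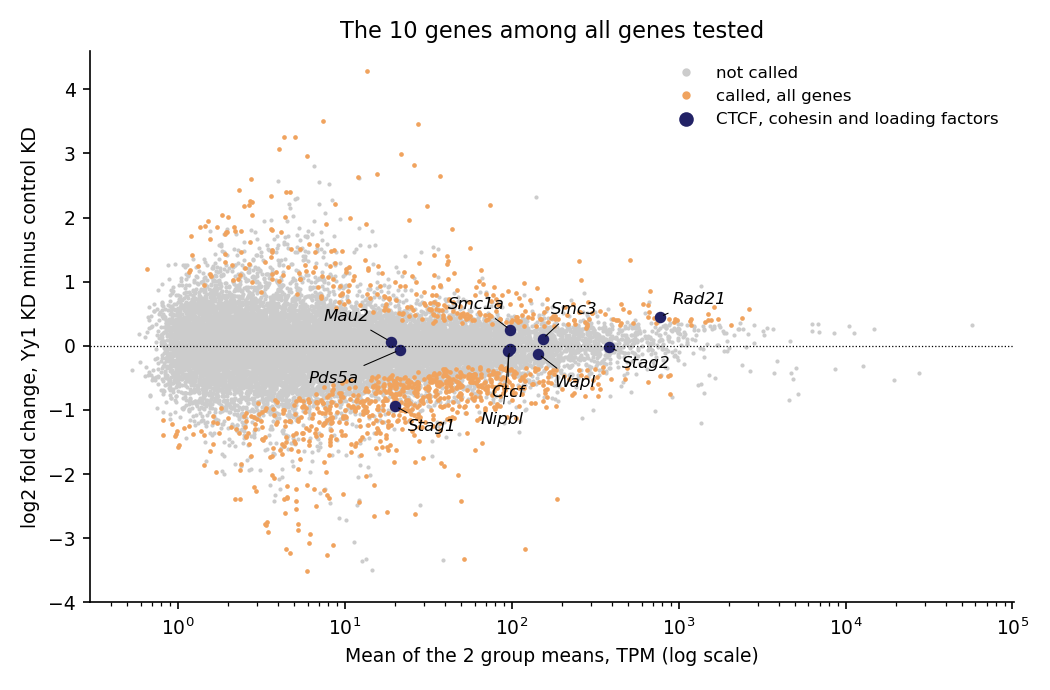
log2 fold change (y axis, *Yy1* KD minus control KD) against the mean level in TPM (log x axis) of the 17353 genes tested, with called genes in orange and the 10 genes in dark blue. *Rad21* and *Stag1* lie apart from 0, at 0.45 and -0.94, and the other 8 lie between -0.12 and 0.25.

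The wider set of genes that act on cohesin showed no call. Of 11 cohesin regulators, all 11 were tested and 0 were called by limma, while at an unadjusted p under 0.05 there were 2, *Esco2* and *Sgo1*, where 23.8% of all genes tested passed. On recovered read pairs, limma-voom called 1, *Esco2*, where it called 12.3% of all genes. *Esco2*, the acetyltransferase that locks the ring during replication, was at 138, 133 and 103 TPM in control KD and at 166.1, 166.3 and 147 TPM in *Yy1* KD libraries, without overlap (log2 fold change 0.37, limma adjusted p = 0.142). *Sgo1*, shugoshin, which protects cohesin at centromeres, was at 34.8, 32.3 and 36.3 TPM in control KD and at 46.2, 43.1 and 38.6 TPM in *Yy1* KD (log2 fold change 0.30, limma adjusted p = 0.134). The acetyltransferase gene *Esco1* (log2 fold change 0.14, limma adjusted p = 0.431), separase *Espl1* (0.08, limma adjusted p = 0.625) and sororin *Cdca5* (0.15, limma adjusted p = 0.274) were not called. *Hdac8*, which removes the acetyl mark from SMC3, was near the floor of the test with 0.679, 0.580 and 0.332 TPM in control KD and 1.12, 1.77 and 1.08 TPM in *Yy1* KD. It passed the filter, at least 1 TPM in at least 3 libraries, through the *Yy1* KD libraries alone. Its direction is therefore not read as a result. The median log2 fold change of the list, *Hdac8* included, was 0.14.

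The other SMC complexes gave 1 call. Condensin, built on SMC2 and SMC4, compacts chromosomes for mitosis. Of its 8 genes, 1 was called and fell, *Smc4* (chromosome 3, plus strand, 69004738 to 69034623), where 6.11% of all genes tested were called. *Smc4* was at 209.8, 200.2 and 186 TPM in control KD and at 137, 133 and 131 TPM in *Yy1* KD libraries, without overlap, to 67.3% of control KD (log2 fold change -0.57, standard error 0.07, limma adjusted p = 0.0127). The call was lost, with limma adjusted p between 0.0510 and 0.0549, without control KD replicate 1, control KD replicate 2 or *Yy1* KD replicate 2, and also without the variance trend. Its partner *Smc2* was at 87.9, 79.9 and 86.0 TPM in control KD and at 96.0, 85.1 and 83.3 TPM in *Yy1* KD, with overlap (log2 fold change 0.06, limma adjusted p = 0.738). Of the 9 genes of the SMC5/6 complex, which acts in DNA repair, 0 were called by limma. There were 2 at an unadjusted p under 0.05 (23.8% of all genes), *Smc6* (log2 fold change -0.21, limma adjusted p = 0.158) and *Slf2* (-0.35, limma adjusted p = 0.0818), and limma-voom called 1, *Slf2*. The median log2 fold change was 0.04 for condensin and -0.07 for SMC5/6.

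Among 14 genes for looping and architectural factors, 13 were tested and 2 were called, both lower, where 6.11% of all genes tested were called. *Yy1* itself was 1 of the 2, and as the target of the siRNA its call follows from the design. The other was its retroposed relative *Zfp42* (log2 fold change -3.17, limma adjusted p = 1.18e-04). *Zfp143*, a zinc finger protein found at loop anchors beside CTCF, was at 97.2, 98.5 and 98.3 TPM in control KD and at 90.9, 94.99 and 88.2 TPM in *Yy1* KD (log2 fold change -0.10, limma adjusted p = 0.414). *Ldb1*, a factor that joins enhancers to promoters by dimerization, was at 132, 121 and 120.2 TPM in control KD and at 104, 114 and 119.9 TPM in *Yy1* KD (log2 fold change -0.15, limma adjusted p = 0.337). Both genes were lower in *Yy1* KD without overlap, and neither was called. *Safb*, a scaffold attachment factor, was higher without overlap (log2 fold change 0.33, limma adjusted p = 0.104) and was called by limma-voom. *Ctcfl*, the germline paralogue of *Ctcf*, did not pass the filter on low values. Over the 13 genes, *Yy1* included, the median change was -0.10 on the log2 scale.

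**Figure D5:**
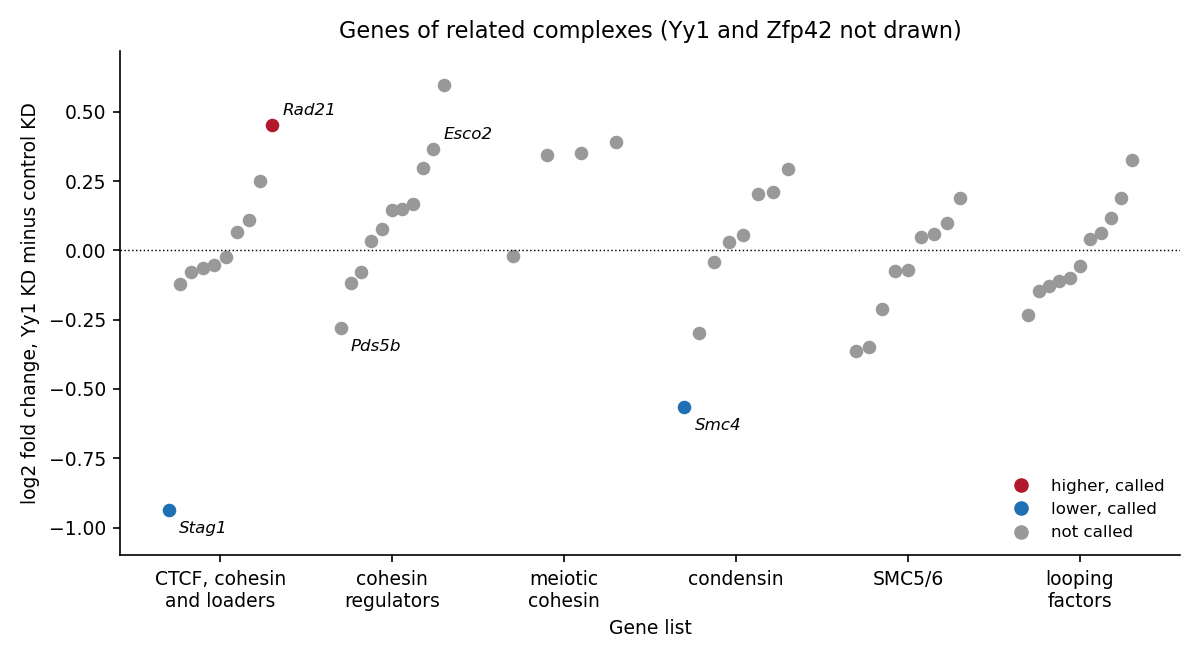
log2 fold change (y axis, *Yy1* KD minus control KD) of the genes tested in each list (x axis), in order of size within a list, with called genes in color and *Yy1* and *Zfp42* left out for scale. Apart from *Rad21* (0.45) and *Stag1* (-0.94), 1 gene is called, *Smc4* in condensin (-0.57), and *Esco2* (0.37) and *Pds5b* (-0.28) are named without a call.

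At the imprinted *H19* and *Igf2* locus, where CTCF acts as an insulator, *Igf2* was at 1.11, 1.11 and 1.01 TPM in control KD and at 2.16, 2.002 and 2.29 TPM in *Yy1* KD libraries. The values did not overlap, as in 30.1% of all genes tested, at a level close to the filter. The log2 fold change was 0.60 without a call (limma adjusted p = 0.134). On recovered read pairs limma-voom did call *Igf2*, where it called 12.3% of all genes. Between 33 and 95.5 read pairs were recovered on *Igf2* per library. Most of its exon length of 5723 nt is shared with *Gm49394*, whose read pairs were divided with it irrespective of strand. *H19* was at or under 0.256 TPM in all 6 libraries and was not tested.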

How the data were processed

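RNA-seq libraries of control KD and *Yy1* KD morulae (3 each) were analysed, grouped by their labels. The authors trimmed reads with Trim Galore (0.6.7), aligned them to mm10 with HISAT2 (2.2.1), removed ribosomal RNA reads with bedtools, counted pairs on GENCODE vM25 genes with featureCounts (2.0.1; shared pairs divided, strand ignored) and deposited TPM. No column of values was left unused.

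TPM keeps no counts, so limma (3.58.1, R 4.3.3) was fitted here to log2(TPM + 1) of genes with at least 1 TPM in at least 3 libraries, with a variance trend and Benjamini-Hochberg adjustment over all genes tested. In two-sided exact permutation tests 3 libraries against 3 cannot give a p below 0.1, so none is quoted. GENCODE vM21 gave coordinates and exon lengths, and TPM multiplied by exon length gave the read pairs (12519597, 24417789 and 18109905 in control KD, 18674188, 12865988 and 11793509 in *Yy1* KD), on which limma-voom was run as an alternative. Promoter sequences are RefSeq's. Tables and figures were made with matplotlib 3.10.9, numpy 2.4.6, pandas 2.3.3 and scipy 1.17.1 in Python 3.11.15.

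The genes and lists were chosen with earlier results of these data known. The text names the 10 genes, called or role-quoted members of the lists (cohesin regulators, meiotic subunits, condensin, SMC5/6, looping factors, the *H19* and *Igf2* locus, cell type markers), 3 genes most like *Ctcf*, and *Yy1*, *Xist* and the Y-linked genes.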

Additional observations from a re-analysis of the deposited data

How the results depend on the processing

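*Rad21* and *Stag1* kept their direction in all 18 alternatives (9 planned settings, 6 fits with 1 library left out and 3 chosen after seeing the data), and of the others *Ctcf*, *Smc1a*, *Smc3* and *Wapl* did so too. Near 0, the sign of *Stag2* turned with median-ratio scaling (0.0022) and voom on recovered read pairs (0.011) and, over fits with 1 library left out, ran from -0.092 to 0.025. In those fits *Nipbl* ran from -0.11 to 0.0016 and *Mau2* from -0.012 to 0.12, and *Pds5a* turned with quantile normalization (0.019). *Rad21* (log2 fold change 0.45) was not called without the filter (adjusted p = 0.0550), without the variance trend (0.0742) or with the replicate block (0.0572). *Stag1* (-0.94) was not called with the replicate block (0.0567). With 1 library left out, *Rad21* and *Stag1* ranged over 0.43 to 0.48 and -1.02 to -0.88. Both changes were smallest with quantile normalization, at 0.34 for *Rad21* (limma adjusted p = 0.0402) and -0.86 for *Stag1* (limma adjusted p = 0.0197). Of the 10 genes, 1 was called without the filter, 1 without the trend, 0 with the replicate block and 0 to 2 with 1 library left out, while limma gave 2 or 3 at an unadjusted p under 0.05 in each of these fits, beside 13.0% of all genes without the filter and 19.3% to 22.6% in the others. Voom also called *Smc1a*. Over the whole table there were 1061 calls among 17353 genes tested (6.11%), 514 without the trend and 287 with the block. Without the filter there were 347 of 35852 genes, and with 1 library left out 73 to 412 of 16627 to 16802. Voom called 2089 of 16931 genes (12.3%), and 1877 of 11506 protein-coding genes were called. Of 45 related genes (2 called, *Yy1* left out) the number was 1 without the trend and 1 to 2 with 1 library left out. It was 5 with voom and 4 among protein-coding genes, settings in which more of all genes were called too. Deviations from the group means had r of -0.0039, 0.032 and 0.075 between same-numbered libraries and -0.071 to 0.041 between differently numbered ones. With 3 libraries per group, these values cannot tell whether the replicate numbers pair the libraries. The cause of the differences in calls between settings was not tested, and a fit without 1 library has fewer samples.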

Other observations

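Transcripts of the meiotic forms of cohesin, which replace mitotic subunits in germ cells, were detected in morulae, *Rec8* and *Stag3* above 52.3% and 54.5% of the genes tested in control KD. *Rec8*, the meiotic kleisin, was at 10.3, 8.94 and 9.91 TPM in control KD and at 12.8, 11.5 and 13.6 TPM in *Yy1* KD libraries, higher without overlap without a call (log2 fold change of 0.34, limma adjusted p = 0.165). *Stag3* was at 11.96, 12.1 and 8.74 TPM in control KD and at 11.4, 9.96 and 10.7 TPM in *Yy1* KD, with overlap. *Smc1b* (1.06 to 2.94 TPM in control KD, 2.43 to 2.97 in *Yy1* KD) and *Rad21l* (1.05 to 2.56 TPM, 1.58 to 3.58) had lower levels than *Rec8* and *Stag3* in both groups. Their log2 fold changes were 0.35 and 0.39, with overlap. Of these 4 genes, 0 were called by limma and 0 by limma-voom, and 1 (*Rec8*) was at an unadjusted p under 0.05, where 23.8% of all genes tested were. Beside them, 9 oocyte markers such as *Zp3* and *Gdf9* summed to 58.6 to 84.6 TPM in control KD and 64.2 to 84.5 TPM in *Yy1* KD libraries, which overlapped. The 4 markers of primitive endoderm summed to 121 to 139.6 TPM in control KD and 137 to 138 TPM in *Yy1* KD libraries, with *Gata6* as most of the sum and *Sox17* under 1 TPM in every library. *Pdgfra* was at 6.85, 4.78 and 9.12 TPM in control KD and at 2.44, 3.19 and 4.31 TPM in *Yy1* KD, lower without overlap and not called by limma (adjusted p = 0.115), though limma-voom called it.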
